A study of Homo sapiens with 8 samples.

Results

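Kinesins are motor proteins that walk along microtubules, and tubulins are the subunits from which microtubules are built. The genes of both families were taken from the count table by symbol. The symbol rule uses no values, but it and all gene lists were chosen with earlier results of these data known. It took KIF or KIFC followed by a number and, where present, a letter from A to C. It also took the TUBA, TUBB, TUBG1 and TUBG2 genes. This gave 62 of the 56303 genes in the table, 42 kinesins and 20 tubulins. They were divided by known role into 14 mitotic kinesins, 17 axonal kinesins, 11 other kinesins, 9 alpha tubulins, 9 beta tubulins and 2 gamma tubulins. The axonal group is broad, as it also holds the dendritic KIF17, the ubiquitous KIF5B and the endosomal KIF16B. After a filter on low counts 55 of the 62 could be tested. KIF2B had no count in any of the 8 libraries, where a count of 0 allows a level of up to 0.0937 CPM (counts scaled to library size) in the shallowest one. KIF12, KIF19, TUBA3C, TUBA3E, TUBA4B and TUBB8 had at most 11 counts in any library and were not tested either.

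The data are MeRIP-seq libraries of SK-N-BE(2), a long-established line of human neuroblastoma. The cells had been infected with pLKO.1 lentivirus and selected with puromycin, and carried either a control hairpin (sh-NC) or a hairpin against METTL14 (shMETTL14), a subunit of the m6A methyltransferase. Each arm had 2 cultures, and each culture gave an input library of fragmented poly(A) RNA and an IP library of the fragments bound by an m6A antibody, 8 libraries in all. The labels do not say which METTL14 hairpin was used or how the cultures of an arm were kept apart, so p-values measure only the spread between these samples.

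The 8 libraries held 32027379 to 47205265 counts. METTL14 stood at 49.5 and 48.7 CPM in the sh-NC inputs and at only 13.7 and 14.6 CPM in the shMETTL14 inputs, a log2 fold change of -1.79 (edgeR adjusted p = 1.28e-15). Here and in what follows adjusted p-values come from the quasi-likelihood test of edgeR, corrected after Benjamini and Hochberg over all genes tested. Of 9 neuroblastoma markers all were detected, MYCN at 4334 CPM on average in sh-NC. After knockdown 6 rose, among them TH, and 0 fell, where 11.7% of all genes tested rose and 12.3% fell. The summed level of 10 markers of other cell types was 305.5 and 307 CPM in the sh-NC inputs against 270.3 and 273.1 CPM in the shMETTL14 inputs. ALB, the hepatocyte marker, was at 0 in all 4 inputs, and 7 of the 10 could be tested. Of these ACTA2, COL1A1 and CD68 fell by 0.85, 0.67 and 0.43 on the log2 scale. COL3A1, the most abundant, rose by 0.14, and 3 did not pass. Thus 57.1% of these markers passed, against 24% of all genes tested. Their part in the changes described next was not tested.

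Microtubules are polymers of alpha and beta tubulin that grow from gamma tubulin templates. Dividing cells build them into a spindle on which mitotic kinesins align chromosomes, slide microtubules apart and complete cytokinesis. Neurons keep them as long tracks on which kinesins of the KIF1, KIF3 and KIF5 families carry vesicles and organelles along axons, and they use tubulin isotypes such as TUBB3 that most other cells hardly make. Neuroblastoma cells come from the sympathetic neuron lineage and divide, so that they can use both sets of genes.

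Levels of different genes were compared per length, as CPM per kilobase of exon (RPKM) in the input libraries. Tubulins were the most abundant members. TUBB, the widely expressed class I beta tubulin, stood at 394.9 and 396.5 RPKM in the 2 sh-NC inputs, which placed its mean above 99.6% of the genes tested. TUBA1B, a ubiquitous alpha tubulin, followed with 328 and 337 RPKM, TUBA1A, the main alpha tubulin of developing neurons, with 254 and 258 RPKM, and the neuronal TUBB2B with 190.2 and 199 RPKM. These 4 genes did not overlap with each other in the sh-NC inputs.

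Kinesins were lower, with medians of 15.3 RPKM over 12 mitotic, 12.8 RPKM over 16 axonal and 7.94 RPKM over 6 other kinesins of at least 1 RPKM in sh-NC, against 5.45 RPKM over 15664 such genes. The highest kinesin was KIF5B, the ubiquitous heavy chain of kinesin-1, at 82.3 and 77.5 RPKM. KIF21A, a regulator of microtubule growth, stood at 66.7 and 63.5 RPKM. KIFC1, a minus-end-directed motor that clusters spindle poles, was the highest mitotic kinesin, at 47.2 and 48.4 RPKM. KIF21B, KIF6, KIF25, KIF4B, TUBA8, TUBB1 and TUBA3D stayed under 0.5 RPKM on average in sh-NC, so that their folds rest on few counts.

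**Figure D1:**
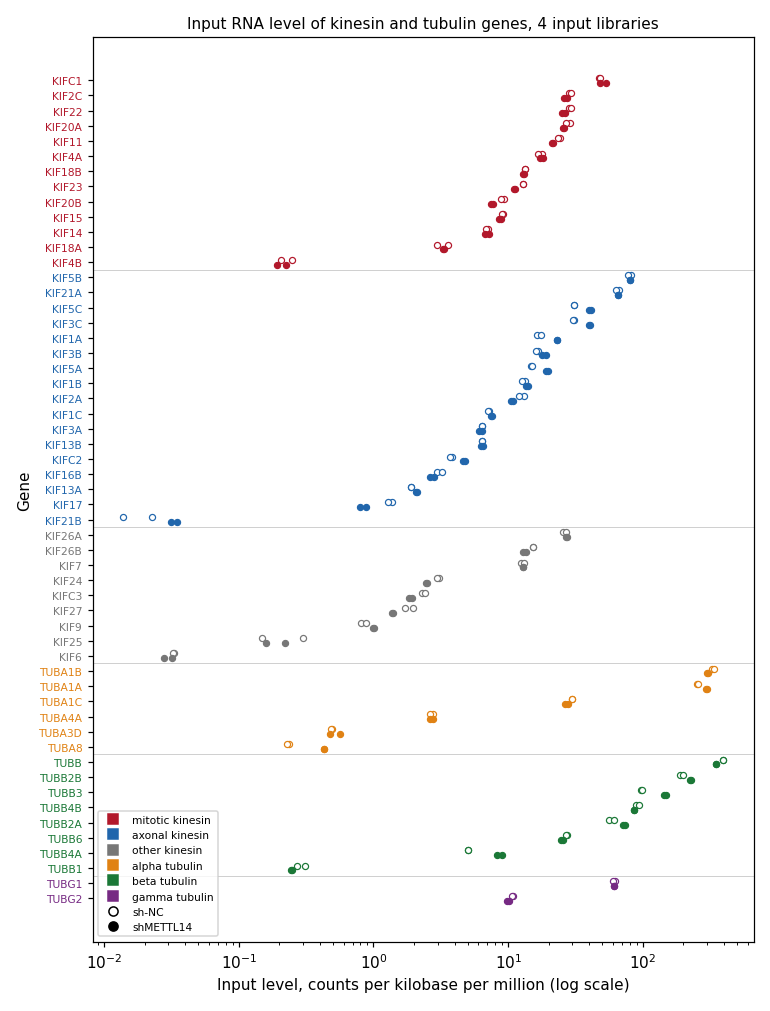
Input RNA level of the 55 members tested, in RPKM on a log axis; each point is 1 library, open for sh-NC and filled for shMETTL14, and colour marks the group. TUBB, TUBA1B and TUBA1A lie at the right end, and KIF21B and KIF6 at the left end.

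The first comparison asked which of these RNAs differed between the arms in the input libraries. After METTL14 knockdown 7 of the 17 axonal kinesins rose, among them KIF1A, KIF5C and KIF3C, 2 fell and 8 did not pass. The neuronal tubulin isotypes TUBB3 and TUBB4A rose. Of the 13 mitotic kinesins tested, 4 fell by small amounts, a share of 30.8% against 24% of all genes. Of the 55 members tested, 13 rose, 13 fell and 29 did not pass the test, so that 47.3% passed, where 24% of all 22245 genes tested did so (11.7% higher and 12.3% lower). Most members were more abundant than the typical gene tested, and the shares here and below were not matched for level. The median log2 fold change was 0.01 over the members and 0.002 over all genes. No member changed by a log2 fold of 1 or more. The input levels of the arms did not overlap for 41 of the 55, against 58.4% of all genes. Members named because they passed the test are mostly free of overlap by that selection, so it adds no support. In these bulk libraries fewer cells of a type and less RNA per cell cannot be told apart.

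**Figure D2:**
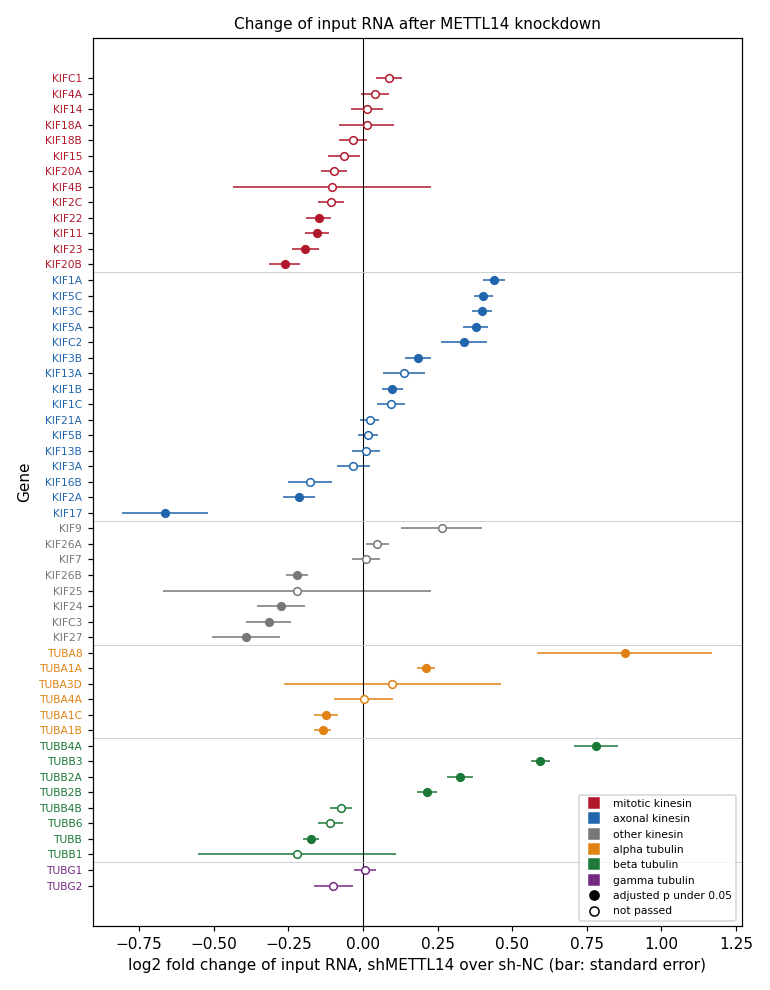
log2 fold change of input RNA, shMETTL14 over sh-NC, with its standard error, for the 53 members tested that reached 0.1 RPKM in the sh-NC 1 input; filled points passed an adjusted p-value of 0.05 by edgeR's quasi-likelihood test. The filled axonal kinesins lie mostly to the right of 0, and all 4 filled mitotic kinesins and all 4 filled other kinesins lie to its left.

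Among the mitotic kinesins, 0 rose, 4 fell and 9 of the 13 tested did not pass, with a median log2 fold change of -0.10. The 30.8% that passed were all lower, where 24% of all genes passed and 12.3% were lower, and the 4 are given as single genes. KIF20B, a motor needed for cytokinesis, stood at 9.38 and 8.91 RPKM in sh-NC and at 7.40 and 7.77 RPKM in shMETTL14, so that both knockdown cultures were below both controls. Its log2 fold change was -0.26 (standard error 0.0506, edgeR adjusted p = 0.000352). KIF23, the motor subunit of centralspindlin, which organises the spindle midzone, had 12.8 and 12.9 RPKM in sh-NC and 11.3 and 11.1 RPKM in shMETTL14, again without overlap. KIF23 fell by 0.19 on the log2 scale (edgeR adjusted p = 0.00217).

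KIF11, the motor that pushes spindle poles apart, had 24.3 and 23.4 RPKM in sh-NC and 21.1 and 21.6 RPKM in shMETTL14, and fell by 0.15 on the log2 scale (edgeR adjusted p = 0.0069). KIF22, which moves chromosome arms, had 28.3 and 29.4 RPKM in sh-NC and 25.3 and 26.5 RPKM in shMETTL14, a fall of the same size (edgeR adjusted p = 0.00979). Each of the 4 thus had its 2 shMETTL14 inputs below its 2 sh-NC inputs, where 58.4% of all genes did not overlap. The other 9, which include KIFC1, KIF2C, KIF18A and KIF4A, had log2 fold changes from -0.11 to 0.09. Without 1 of the shMETTL14 cultures some of these small falls no longer passed: KIF11 and KIF22 without culture 1, and KIF23 without culture 2. With no filter on low counts, which raises the number of genes tested to 37399, none of the 4 passed.

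Many genes of the late cell cycle carry 2 short elements just upstream of their start, the cell cycle genes homology region with the letters TTTGAA and the CCAAT box. Promoters from the RefSeq annotation of GRCh38.p14 were available for 54 of the 62 members, and both motifs were searched on both strands of the 250 bases before the start. TTTGAA was found in 5 of the 14 mitotic kinesins (35.7%), in 1 of 13 axonal kinesins and in 13.6% of all 27305 promoters. CCAAT was found in 11 of the 14 mitotic kinesins (78.6%), in 3 of 13 axonal kinesins (23.1%) and in 33% of all promoters. It was not particular to the mitotic kinesins among the members. The other groups held it in 6 of 9 alpha tubulins (66.7%), 4 of 9 beta tubulins (44.4%), 2 of 2 gamma tubulins and 3 of 7 other kinesins (42.9%). Both were found together in 4 of the 14 (28.6%) and in 4.85% of all promoters, and they can share no more than 1 base at their ends. The 5 windows of 30 bases around TTTGAA are shown as the element named for cell cycle genes, in the mitotic kinesins that hold it; capitals mark the motif, read as TTCAAA where it lies on the opposite strand.
KIF11: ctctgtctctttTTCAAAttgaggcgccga
KIF15: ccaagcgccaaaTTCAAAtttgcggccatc
KIF18A: gctgaggaaagtggcttgggTTTGAAtatt
KIF23: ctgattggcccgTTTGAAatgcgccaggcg
KIF4A: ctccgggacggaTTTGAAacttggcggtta
The windows lie at chr10:92593090-92593119 (plus strand), chr3:44761747-44761776 (plus), chr11:28108157-28108186 (minus), chr15:69414282-69414311 (plus) and chrX:70290058-70290087 (plus), and the motif stands 28, 35, 10, 55 and 34 bases before the RefSeq start. Those of KIF15, KIF18A and KIF23 fall inside the first exon of the count table's annotation. Of these 5 genes KIF11 and KIF23 fell in the input, and KIF15, KIF18A and KIF4A had log2 fold changes of -0.06, 0.01 and 0.04. KIF20B and KIF22 fell and have no TTTGAA in this stretch.

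The 17 axonal kinesins had a median log2 fold change of 0.10. KIF1A, which carries synaptic vesicle precursors, had 16.5 and 17.5 RPKM in sh-NC and 22.9 RPKM in both shMETTL14 inputs. The arms were well apart, and the log2 fold change was 0.44 (standard error 0.0364, edgeR adjusted p = 2.14e-09). KIF5C, a heavy chain of kinesin-1 enriched in neurons, had 30.8 RPKM in both sh-NC inputs and 40.1 and 40.9 RPKM in the shMETTL14 inputs, a log2 fold change of 0.40 (standard error 0.0328, edgeR adjusted p = 1.63e-09).

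KIF3C, a neuron-enriched motor of the kinesin-2 family, had 30.7 and 30.5 RPKM in sh-NC and 40.0 and 40.3 RPKM in shMETTL14, and rose by 0.40 on the log2 scale. KIF5A, the kinesin-1 heavy chain with the narrowest neuronal expression, had 14.8 and 15.1 RPKM in sh-NC and 19.05 and 19.6 RPKM in shMETTL14, and rose by 0.38. KIFC2, a minus-end-directed motor of neurons, went from 3.80 and 3.72 RPKM to 4.64 and 4.82 RPKM, a rise of 0.34. For all 3 the knockdown cultures were above the controls, where 58.4% of all genes did not overlap. KIF3B, a subunit of kinesin-2 motors, rose by 0.18, and KIF1B, a motor for mitochondria and vesicle precursors, by 0.10 (edgeR adjusted p = 0.0487). KIF3A, of the same family as KIF3B and KIF3C, had a log2 fold change of -0.03 and did not pass. The calls of KIF3B and KIF1B were lost without shMETTL14 culture 1 and with no filter, and that of KIF1B also without sh-NC culture 2, without shMETTL14 culture 2, with DESeq2, with RLE factors and in a fit of all 8 libraries.

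The 2 axonal kinesins that fell were KIF17 and KIF2A. KIF17, a dendritic transport motor, had 1.37 and 1.28 RPKM in sh-NC and 0.875 and 0.792 RPKM in shMETTL14, the largest fall of any member (log2 fold change -0.66, standard error 0.144, edgeR adjusted p = 0.00125). KIF2A, which takes microtubules apart and prunes axon branches, had 13.1 and 12.03 RPKM in sh-NC and 10.9 and 10.6 RPKM in shMETTL14 (log2 fold change -0.22, edgeR adjusted p = 0.00348). Both were lower in each knockdown culture than in each control, where 58.4% of all genes did not overlap. The call of KIF2A was lost without shMETTL14 culture 2 and with no filter. KIF2A shares 8.97% of its exonic bases with IPO11, a gene on the same strand. KIF5B and KIF21A, the most abundant axonal kinesins, had log2 fold changes of 0.02 with standard errors of 0.0335 and 0.0315.

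Within the kinesin-1 heavy chains the make-up therefore differed between the arms. KIF5C made up 24.1% and 24.95% of the summed KIF5 level in the sh-NC inputs against 28.8% and 29.0% in the shMETTL14 inputs, and KIF5A went from 11.6% and 12.2% to 13.6% and 13.9%. KIF5B made up 64.3% and 62.8% in sh-NC against 57.6% and 57.0% in shMETTL14. The shares of the arms did not overlap for any of the 3 genes, where the input levels of 58.4% of all genes did not overlap. KIF5A and KIF5C had passed in the same inputs and the 3 shares add up to the whole, so this adds no support. An exact permutation test of 2 cultures against 2 cannot give a p-value under 0.333. In the KIF1 family the share of KIF1A was 45.8% ± 1.67 (SD, n = 2) in sh-NC, against 51.8% ± 0.421 (SD, n = 2) in shMETTL14. In the KIF3 family the share of KIF3C was 57.4% ± 0.196 (SD, n = 2) and 61.9% ± 1.07 (SD, n = 2).

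Of the 9 other kinesins tested, 0 rose and 4 fell, with a median log2 fold change of -0.22. Thus 44.4% passed, where 24% of all genes passed and 12.3% were lower. KIF26B, an atypical kinesin of developmental signalling, had 15.4 RPKM in both sh-NC inputs and 12.8 and 13.5 RPKM in shMETTL14 (log2 fold change -0.22, standard error 0.0364, adjusted p = 5.97e-05 by edgeR's test). KIFC3, a minus-end-directed motor of epithelial junctions, had 2.31 and 2.40 RPKM in sh-NC and 1.94 and 1.82 RPKM in shMETTL14, and fell by 0.32. KIF27, a relative of KIF7 with a role at motile cilia, fell by 0.39, and KIF24, which acts at centrioles, fell by 0.28. KIF7 itself, the ciliary regulator of hedgehog signalling, had a log2 fold change of 0.01. The calls of KIF27 and KIF24 were lost when sh-NC culture 1 or either shMETTL14 culture was left out, and with DESeq2, and that of KIFC3 without shMETTL14 culture 2. With no filter on low counts KIF26B alone of the 4 passed.

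Of 8 beta tubulins tested, 4 rose, 1 fell and 3 did not pass, with a median log2 fold change of 0.07. The share that passed was 62.5%, against 24% of all genes. TUBB3, the class III beta tubulin used as a marker of neurons, had 97.0 and 97.8 RPKM in sh-NC and 145 and 148 RPKM in shMETTL14, so that the lower knockdown culture was far above both controls. Its log2 fold change was 0.59 (standard error 0.0312, edgeR adjusted p = 6.89e-13), and it ran from 0.57 to 0.61 when each culture was left out in turn. TUBB3 lies on chromosome 16 from 89921392 to 89938761 in the table's GRCh38 coordinates and shares 35.8% of its exonic bases with RP11-566K11.2, a gene on the same strand that had 153785 counts over the 8 libraries, where TUBB3 had 163944.

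TUBB4A, the class IV beta tubulin of brain, had 5.02 and 5.03 RPKM in sh-NC and 8.98 and 8.21 RPKM in shMETTL14 (log2 fold change 0.78, standard error 0.0731, edgeR adjusted p = 1.64e-08). TUBB2A had 56.5 and 60.5 RPKM in sh-NC and 71.6 and 74.2 RPKM in shMETTL14, and its neuronal near-copy TUBB2B had 190.2 and 199 RPKM and then 227 and 223 RPKM. They rose by 0.32 and 0.22 on the log2 scale. Because reads of these close copies can be split between them, they were also summed, and the sum rose by 0.24 (edgeR adjusted p = 5.03e-06).

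TUBB, the most abundant beta tubulin, fell from 394.9 and 396.5 RPKM to 351 and 347 RPKM (log2 fold change -0.17, standard error 0.0281, edgeR adjusted p = 4.43e-05). TUBB shares 16.0% of its exonic bases with an antisense gene, XXbac-BPG252P9.9. That gene had 143932 counts over the 8 libraries against 336986 for TUBB. TUBB4B and TUBB6 had log2 fold changes of -0.07 and -0.11 and did not pass. Since TUBB fell and TUBB3 rose, the ratio of TUBB3 to TUBB was 0.246 and 0.247 in sh-NC against 0.412 and 0.427 in shMETTL14. TUBB3 made up 11.3% and 11.1% of the summed beta tubulin level in sh-NC against 15.8% and 16.3% in shMETTL14, and TUBB 45.9% and 45.1% and then 38.3% and 38.1%. The summed level itself was 860.3 and 880.0 RPKM in sh-NC and 914.7 and 912.6 RPKM in shMETTL14.

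**Figure D3:**
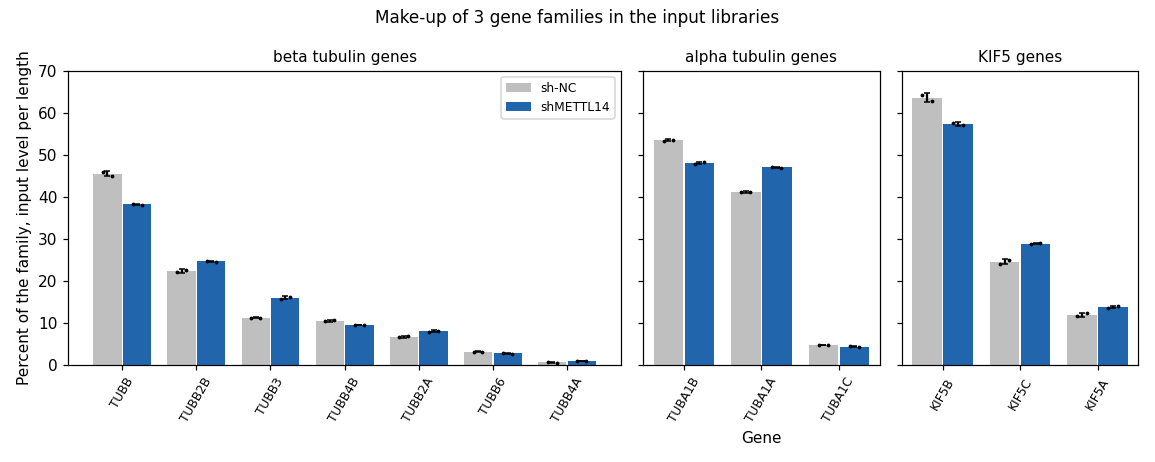
Percent of the summed input level per length that each gene contributed to the beta tubulin, alpha tubulin and KIF5 families; bars are means and error bars SDs of 2 cultures, dots are single input libraries, and members under 0.5% are not drawn. TUBB3, TUBA1A and KIF5C had larger shares in shMETTL14 (blue) than in sh-NC (grey), and TUBB, TUBA1B and KIF5B smaller ones.

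Of 6 alpha tubulins tested, 2 rose and 2 fell, so that 66.7% passed, against 24% of all genes. TUBA1A had 254 and 258 RPKM in sh-NC and 298 and 292 RPKM in shMETTL14, and rose by 0.21 on the log2 scale (standard error 0.0294, edgeR adjusted p = 6.5e-06). TUBA1B had 328 and 337 RPKM in sh-NC and 303 and 299.9 RPKM in shMETTL14, and fell by 0.14 (edgeR adjusted p = 0.00104). TUBA1C, the third of this group of near-identical genes, had 29.6 and 30.02 RPKM and then 27.9 and 26.6 RPKM, and fell by 0.12 (edgeR adjusted p = 0.0242, lost when either shMETTL14 culture was left out and with no filter). None of the 3 overlapped between the arms, and neither did 58.4% of all genes.

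Summed, TUBA1A, TUBA1B and TUBA1C had a log2 fold change of 0.01 (edgeR adjusted p = 0.795), so that the rise of TUBA1A and the falls of TUBA1B and TUBA1C came to nearly nothing in the sum. TUBA1A made up 41.3% and 41.1% of the summed alpha tubulin level in sh-NC against 47.1% and 46.9% in shMETTL14. How reads that fit more than 1 of these genes were assigned is not given in the sources used here. TUBA1B also shares 36.6% of its exonic bases with an antisense gene, RP11-386G11.10. TUBA1C shares 10.6% of its exonic bases with TUBA1A, on the opposite strand, which had 230969 counts over the 8 libraries against 29197 for TUBA1C. TUBA8 rose by 0.88 on 31 and 30 counts in sh-NC and 66 and 65 counts in shMETTL14, but 37.1% of its exonic bases are shared with PEX26, a gene on the same strand that had 11371 counts over the 8 libraries against 315 for TUBA8, and 50.7% with an antisense gene, AC008079.10. Its call was lost when any of the 4 cultures was left out, with DESeq2 and with no filter. The gamma tubulins TUBG1 and TUBG2, the templates for new microtubules, had log2 fold changes of 0.01 and -0.10 and did not pass.

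Genes that work with kinesins and tubulins were counted from lists of known function, chosen with earlier results of these data known. Counts are set beside the 24% of all genes that passed. Of 12 kinesin partners and cargo adaptors, 6 rose and 0 fell, with a median of 0.18. They include the kinesin light chains KLC2 (0.42), KLC4 (0.23) and KLC1, the adaptor MAPK8IP1 (0.29) and KIFAP3 (0.26), which joins cargo to KIF3 motors. Of 20 microtubule-associated proteins, 13 rose and CKAP5 fell, with a median of 0.19. DCX rose by 0.91, MAPT by 0.89, MAP1A by 0.59 and MAP2 by 0.39 on the log2 scale, genes whose products stabilise microtubules in neurons.

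Of 11 spindle partners of mitotic kinesins, 4 fell and 1 rose (45.5% passed), with a median of -0.03. CEP55, NUSAP1, RACGAP1 and SPAG5 fell by 0.22, 0.20, 0.17 and 0.13, and PRC1, which bundles midzone microtubules with KIF4A, rose by 0.14. RACGAP1 is the partner of KIF23 in centralspindlin. The next 3 lists lay near the share of all genes, with 33.3% of ring complex genes, 28.6% of modifying enzymes and 33.3% of folding cofactors passing, and their members are given as single genes. In the gamma-tubulin ring complex 1 of 9 genes rose, MZT1 (0.40), and 2 fell, TUBGCP3 (-0.37) and TUBGCP4 (-0.22), although TUBG1 and TUBG2 did not pass. Of 14 tubulin modifying enzymes 3 rose and 1 fell. SVBP, the partner of the tubulin carboxypeptidases, rose by 0.53, the acetyltransferase ATAT1 by 0.48 and the deacetylase HDAC6 by 0.19, and the polyglutamylase TTLL7 fell by 0.33. Tubulin folding cofactors had 1 rise (TBCB, 0.16) and 1 fall (ARL2, -0.17) among 6. Of 13 subunits of cytoplasmic dynein and dynactin, which carry cargo in the opposite direction to most kinesins, 4 rose, led by DYNLL2 (0.30), and DCTN4 fell by 0.34 (38.5% passed).

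The second comparison asked how much of each RNA the m6A antibody recovered, given as the ratio of its IP level to its input level in the same culture. Both libraries are scaled over all genes, so that 1 is close to the recovery of a typical gene and a ratio below 1 does not mean absence of m6A. In sh-NC 28 of the 55 members were higher in the IP than in the input, 17 were lower and 10 did not pass, against 58.9% of all 22953 genes passing (29.1% higher and 29.8% lower). The median log2 ratio was 0.15 over the members and -0.01 over all genes. Kinesins were mostly above 1 and tubulins were divided: 22 kinesins were higher and 8 lower of 39 tested, and 6 tubulins were higher and 9 lower of 16. With scaling factors taken from the 25% of genes with the lowest ratios, 49 members were higher and 1 was lower, and the median of all genes moved to 0.89, so each direction given here is relative to the typical gene.

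**Figure D4:**
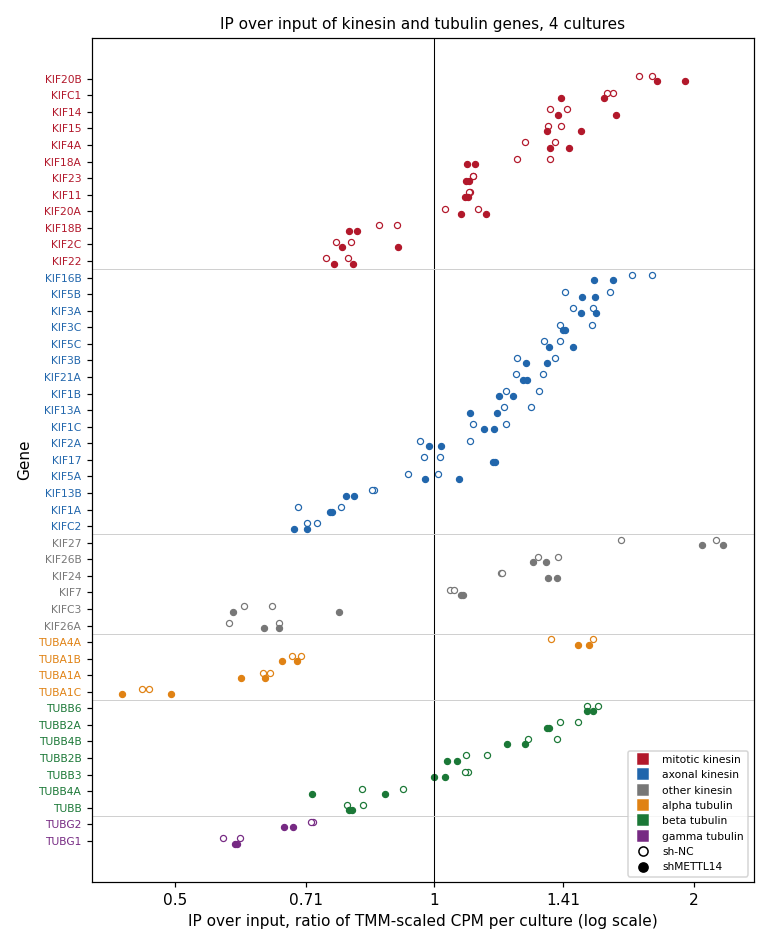
Ratio of IP to input level, in TMM-scaled CPM, on a log axis for the 47 members with at least 1 RPKM in sh-NC; each point is 1 culture, open for sh-NC and filled for shMETTL14. KIF27 and KIF20B lie at the right end, and TUBA1C and TUBG1 at the left end.

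Of 13 mitotic kinesins tested, 9 were higher and 3 lower in the IP, with a median log2 ratio of 0.15. KIF20B had ratios of 1.73 and 1.79 in the sh-NC cultures against 1.95 and 1.81 in the shMETTL14 cultures. Its log2 ratio in sh-NC was 0.81 (standard error 0.0471, edgeR adjusted p = 6.71e-21). KIFC1 followed with ratios of 1.61 and 1.58 in sh-NC against 1.57 and 1.40 in shMETTL14, and KIF14, a motor of the midbody, with 1.36 and 1.43 and then 1.62 and 1.39. At the other end KIF22 had 0.794 and 0.749 in sh-NC and KIF2C, which removes tubulin at kinetochores, had 0.7999 and 0.768. The arms overlapped for KIF14, KIF22 and KIF2C but not for KIF20B and KIFC1. How often the ratios of all genes do so was not counted. None of these genes passed the test of the difference between the arms.

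Of 17 axonal kinesins, 10 were higher and 3 lower, with a median log2 ratio of 0.34. KIF16B, a motor of early endosomes, had the highest ratios, 1.69 and 1.79 in sh-NC against 1.53 and 1.61 in shMETTL14. KIF5B had 1.42 and 1.60 in sh-NC, KIF3A 1.45 and 1.53 and KIF5C 1.34 and 1.40. KIF1A, which rose in the input, was among the lowest, with 0.780 and 0.695 in sh-NC against 0.760 and 0.758 in shMETTL14, and KIFC2 had 0.712 and 0.731. In the KIF5 family KIF5B and KIF5C were higher in the IP, and KIF5A, with 0.931 and 1.01, did not pass in sh-NC; a difference between these genes was not tested.

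Among the other kinesins KIF27 had the highest log2 ratio of all members, 0.89 in sh-NC (standard error 0.1002, edgeR adjusted p = 5.04e-11), from ratios of 1.65 and 2.12. KIF26B had 1.32 and 1.39, and its family member KIF26A had 0.661 and 0.578, so that these relatives lay on opposite sides of 1. KIFC3 was low as well, with 0.647 and 0.601.

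Of the 6 alpha tubulins tested, 4 were lower and 1 higher. All 3 abundant alpha tubulins were lower in the IP: TUBA1C had ratios of 0.458 and 0.467 in sh-NC, TUBA1A 0.644 and 0.633 and TUBA1B 0.683 and 0.7003. Their log2 ratios were -1.11, -0.65 and -0.53, and the 3 genes summed gave -0.61 (standard error 0.0338, edgeR adjusted p = 1.34e-21). TUBA4A, a less abundant alpha tubulin, was higher, with 1.36 and 1.53. TUBA1C shares 10.6% of its exonic bases with the more abundant TUBA1A, on the opposite strand. TUBA3D and TUBB1 had log2 ratios of -1.30 and -1.62, on 39 or fewer counts in every library, and the call of TUBA3D was lost without either sh-NC culture. TUBB1 shares 34.0% of its exonic bases with ATP5E, on the opposite strand. ATP5E had 17872 counts over the 8 libraries against 212 for TUBB1.

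Of 8 beta tubulins, 5 were higher and 3 lower in sh-NC. TUBB6 had ratios of 1.50 and 1.55, TUBB2A 1.47 and 1.40 and TUBB4B 1.39 and 1.28. TUBB, the most abundant, had 0.826 and 0.792, and TUBB4A 0.824 and 0.918, a call that was lost without sh-NC culture 1, with DESeq2, with upper-quartile factors and with no filter. Both gamma tubulins were lower, TUBG1 with 0.569 and 0.594 and TUBG2 with 0.724 and 0.720. Of the 9 ring complex genes 7 were lower in the IP as well and 0 higher, with a median log2 ratio of -0.45. This is 77.8%, where 58.9% of all genes passed and 29.8% were lower.

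Transcript structure differed between the groups too. Over the members with at least 1 RPKM, 34 kinesins had a median exonic length of 6196 bases in 22.5 exon blocks, with a longest block of 1761 bases, and 13 tubulins had 3421 bases in 7 blocks, with a longest block of 1797 bases. Across the 47 genes Spearman's rho between the log2 ratio in sh-NC and the longest exon block was 0.085, with total length 0.206 and with input level -0.154. Within the 34 kinesins the values were 0.025, 0.126 and 0.018, and within the 13 tubulins 0.187, -0.137 and -0.319, so that those for length and input level took opposite signs in the families. Over 15664 genes the same values were 0.228, 0.169 and 0.018. These points share the same 4 libraries and are given as a description.

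In shMETTL14, 25 members were higher in the IP, 16 lower and 14 did not pass, against 58% of all genes passing (28.9% higher and 29.1% lower). In both arms together, 25 members were higher in each, 15 were lower in each, 0 were called in opposite directions and 9 were called in neither. Another 5 passed in sh-NC alone, among them TUBB3, TUBB2B and KIF18A, and TUBA8 passed in shMETTL14 alone, a call lost without shMETTL14 culture 2. The difference between the arms was tested separately.

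**Figure D5:**
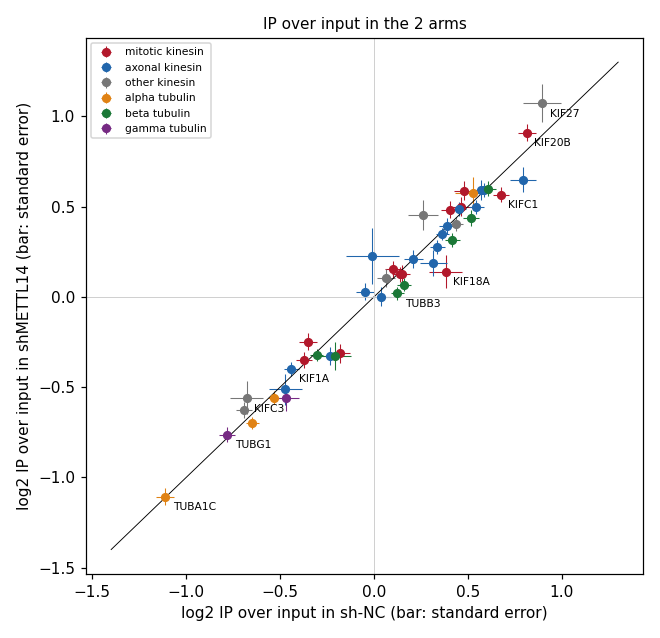
log2 ratio of IP to input in sh-NC and in shMETTL14 with standard errors, for the 47 members with at least 1 RPKM in sh-NC; the diagonal marks equal values. The points follow the diagonal from TUBA1C at the lower left to KIF27 at the upper right.

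The third comparison asked whether IP over input changed with METTL14 knockdown, tested as an interaction between arm and kind of library. Of the 55 members 0 passed in either direction at an adjusted p-value of 0.05, by the edgeR test and also by DESeq2, and 1 of all 22953 genes did so (0.00436%). The median change was -0.01 over the members and -0.001 over all genes, 29 members were below 0 and 26 above, and 48 had an absolute log2 change under 0.25. At an unadjusted p-value of 0.05, 2 members passed, against 6.34% of all genes. Because the scaling is over all genes, a loss of m6A by an equal factor in every RNA would not appear in these values. Counts are also summed over each whole gene, so a loss at a single site may be hidden by the other sites.

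The 3 members with the lowest unadjusted p-values were TUBA8, TUBB3 and KIF18A. TUBA8 had ratios of 0.989 and 1.50 in sh-NC against 0.584 and 0.341 in shMETTL14, a change of -1.401 (standard error 0.491, edgeR unadjusted p = 0.00632, adjusted p = 0.615), on 18 to 66 counts per library. TUBB3 had 1.09 and 1.08 in sh-NC against 1.03 and 0.998 in shMETTL14, a change of -0.10 (standard error 0.0498, edgeR unadjusted p = 0.0416, adjusted p = 0.767). The input of TUBB3 rose in the same cultures, so that the IP level rose by less than the input level. KIF18A, which sets chromosome alignment, had 1.25 and 1.36 in sh-NC against 1.11 and 1.09 in shMETTL14, a change of -0.24 (standard error 0.126, edgeR unadjusted p = 0.0606, adjusted p = 0.794).

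KIF1A, KIF5C, KIF3C, KIF5A and KIFC2, which had risen in the input, had changes of IP over input of 0.04, 0.03, -0.05, 0.08 and -0.04, with standard errors from 0.0524 to 0.122. Among the tubulins that had risen, TUBB4A had a change of -0.12 (standard error 0.113) and TUBB2A one of -0.08 (standard error 0.0601). KIF17 and KIF27, the called kinesins with the largest falls in the input, had changes of 0.23 and 0.18 (standard errors 0.208 and 0.145). For TUBB, TUBA1B and TUBA1A, the 3 members with the most counts, the changes were -0.02, -0.03 and -0.05, with standard errors of 0.0481, 0.0498 and 0.0495.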

How the data were processed

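MeRIP-seq was done on SK-N-BE(2) cells, with 2 cultures per arm and an input and an IP library each. The authors deposited raw counts per gene. Per the labels and the submitters' processing notes, stranded libraries with 8-base molecular identifiers were trimmed with Trimmomatic 0.36 and GRCh38 was used; aligner, counter, its strand setting and handling of duplicates are not given in the sources used here. Even numbers made up 80.0% of counts from 1 to 19 and 50.8% of counts from 200 to 1999, so low counts may hold both reads of a pair. Depth was 32027379 to 47205265 counts per library; 2 cultures per arm limit the precision.

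Counts went through edgeR 4.0.16 in R 4.3.3 (filterByExpr, TMM, glmQLFit, glmQLFTest; Benjamini-Hochberg over all genes, threshold 0.05), on the 4 inputs for the input change (22245 genes) and on all 8 libraries with 4 group means otherwise (22953 genes). The standard error is the size of the log2 fold change over the square root of F. CPM and RPKM use factors from all 8 libraries and the deposited gene length, which equals the merged exons of all 62 members. Promoters came from RefSeq. All 62 symbols matched RefSeq. Fits were tested on simulated data. Replicates differed by more than sampling noise (chi-square per gene 2.52 to 4.32).

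The members and all lists were chosen with earlier results of these data known. Named are members past the threshold in the input, up to 6 per group by size, and the 3 highest in level and the 3 highest and 3 lowest in IP over input of each group; KIF3B, KIF1B, KIF2A, KIF5C and members given only as relatives or examples were named after their values were seen. IP and input of 1 culture are paired, since the protocol took both from the same RNA; deviations from the group means correlated between them by 0.004 in sh-NC and 5.6e-05 in shMETTL14. Alternatives were DESeq2 1.42.0, RLE, upper-quartile and no scaling factors, factors from the least enriched 25% of genes, other filters, a log2 threshold of 1, a replicate block, other sets of libraries, leaving out each culture, and summing near-identical genes; dropping the 4 members with over 25% exonic overlap and an unadjusted p-value were added after seeing the data.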

Additional observations from a re-analysis of the deposited data

Results flagged for a closer look

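KIF6, a little-expressed kinesin with 8 to 16 counts per library, had IP over input ratios of 0.674 and 0.677 in the sh-NC cultures against 1.57 and 1.23 in the shMETTL14 cultures, so that both cultures of one arm lay below 1 and both of the other above it. The fitted change was 1.03 on the log2 scale with a standard error of 0.796, and edgeR's quasi-likelihood test of the interaction gave an unadjusted p = 0.202 and an adjusted p = 0.88, so the difference between the arms did not pass the test.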

How the results depend on the processing

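Beside the 13 members that rose and 13 that fell in the input, no filter on low counts left 4 falls, 0 rose and 0 fell at a log2 fold of at least 1, and leaving out 1 culture gave 11 to 12 rises and 7 to 15 falls. The lowest were 7 falls without shMETTL14 culture 2 and 8 without shMETTL14 culture 1; the culture left alone in an arm is then assumed to vary like the other groups. With 1 culture left out, 27 to 28 members had higher and 14 to 17 had lower IP than input in the sh-NC arm, and 21 to 27 and 14 to 16 in the shMETTL14 arm. A log2 fold of at least 1 left 0 higher with 3 lower in the sh-NC arm, and 1 higher with 2 lower in the other. Scaling by library size alone moved the median member level from 12.9 to 13.4 RPKM, and an unadjusted p-value gave 2 members with lower IP over input after knockdown. With the replicate block 13 members rose and 13 fell in the input, 27 were higher and 17 lower in the IP in sh-NC, 25 and 16 in shMETTL14, and 0 changed.

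With factors from the least enriched 25% of genes, 49 members were higher with 1 lower in sh-NC, 47 with 1 in shMETTL14, and 26 log2 ratios changed sign by construction of that scale. In sh-NC they became 0.53 (KIF22), 0.56 (KIF2C), 0.44 (KIFC2), 0.47 (KIF1A), 0.67 (KIF13B), 0.22 (KIF26A), 0.23 (KIFC3), 0.26 (TUBA1A), 0.38 (TUBA1B), 0.60 (TUBB), 0.70 (TUBB4A), 0.13 (TUBG1) and 0.44 (TUBG2). In shMETTL14 they became 0.50 (KIF22), 0.60 (KIF2C), 0.34 (KIFC2), 0.45 (KIF1A), 0.52 (KIF13B), 0.22 (KIF26A), 0.29 (KIFC3), 0.15 (TUBA1A), 0.29 (TUBA1B), 0.53 (TUBB), 0.52 (TUBB4A), 0.087 (TUBG1) and 0.29 (TUBG2). The median of all genes moved to 0.89 and 0.84, and TUBA1C stayed below 0.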
